A study of Mus musculus with 5 samples.

Results

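The genes described here are 10 that endocrine cells of the stomach are known for: the hormone genes Gast, Sst and Ghrl, the ghrelin acyltransferase gene Mboat4, the amine genes Hdc, Slc18a2 and Tph1, the granule genes Chga and Chgb, and the transcription factor gene Neurog3. They were taken by name, though with earlier results of these data known, as were the further lists below. All 10 were found, each with a single probe set, among 19938 genes that had a probe set naming 1 gene. The study hybridised RNA to Affymetrix Mouse Gene 1.0 ST arrays, 5 in all and 1 per group, from male ddY mice (an outbred stock) aged 5 weeks. All groups received 2 oral administrations 0.5 h apart, and the gut was collected 4 h after the last. The control, GA+GA, had gum arabic (GA), the vehicle, at both. LG21+GA had Lactobacillus gasseri OLL2716 (LG21), a probiotic bacterium, and then gum arabic. GA+Asp had gum arabic and then aspirin, an inhibitor of prostaglandin synthesis. Tep+Asp had teprenone, a mucosal protective drug, and then aspirin, and LG21+Asp had the bacterium and then aspirin. Aspirin was thus given on 3 arrays and left out on 2. The sources used here give neither doses nor the number of mice behind an array.

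Endocrine cells are scattered through the gastric glands and release their products into the tissue and the blood. G cells of the antrum make gastrin, which acts through the receptor Cckbr on enterochromaffin-like cells. These cells make histamine with Hdc, load it into granules with the transporter Slc18a2 and so drive acid secretion by parietal cells. D cells make somatostatin, which restrains gastrin, histamine and acid release, and X/A-like cells make ghrelin, a hunger hormone that becomes active once Mboat4 has attached a fatty acid to it. Serotonin is made in enterochromaffin cells from the product of Tph1. Chga and Chgb encode chromogranins, proteins of the secretory granule, and Neurog3 marks the progenitors of endocrine cells.

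The stretch around the transcription start is shown for 5 of the genes because Sst, Chga and Slc18a2 stood higher on all 3 aspirin arrays, as did Hdc, and because 4 of the 5 share letters that were not found in the listed promoters of the other members. RefSeq sequences of build GRCm38.p6 were available for 9 of the 10 genes, each from 250 bases before to 50 bases after the listed start, and Ghrl and Tph1 had several starts. Capitals mark TGACGTNA, searched on both strands, which takes in TGACGTCA, the palindromic site known as the cAMP response element. In Sst, on the minus strand of chr16:23890795-23891094, it begins 48 bases before the start. In Chga (plus strand, chr12:102554691-102554990) the letters are TGACGTAA and begin 44 bases before it, in Chgb (plus strand, chr2:132781392-132781691) 72 bases before it, and in Slc18a2 (plus strand, chr19:59260628-59260927) 4 bases before it. Hdc (minus strand, chr2:126618629-126618928) holds no match and is shown for contrast.
Sst: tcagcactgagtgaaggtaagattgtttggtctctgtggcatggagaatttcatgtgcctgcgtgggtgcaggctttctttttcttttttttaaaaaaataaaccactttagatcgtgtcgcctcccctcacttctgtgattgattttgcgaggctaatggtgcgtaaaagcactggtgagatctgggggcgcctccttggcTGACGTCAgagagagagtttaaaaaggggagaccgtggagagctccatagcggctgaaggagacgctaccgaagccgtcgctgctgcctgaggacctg
Chga: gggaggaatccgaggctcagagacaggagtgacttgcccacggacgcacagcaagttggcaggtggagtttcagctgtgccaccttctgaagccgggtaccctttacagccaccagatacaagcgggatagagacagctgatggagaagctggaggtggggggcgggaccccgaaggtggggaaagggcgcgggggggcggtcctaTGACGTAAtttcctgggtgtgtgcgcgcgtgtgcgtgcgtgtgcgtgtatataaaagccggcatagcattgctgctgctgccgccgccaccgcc
Chgb: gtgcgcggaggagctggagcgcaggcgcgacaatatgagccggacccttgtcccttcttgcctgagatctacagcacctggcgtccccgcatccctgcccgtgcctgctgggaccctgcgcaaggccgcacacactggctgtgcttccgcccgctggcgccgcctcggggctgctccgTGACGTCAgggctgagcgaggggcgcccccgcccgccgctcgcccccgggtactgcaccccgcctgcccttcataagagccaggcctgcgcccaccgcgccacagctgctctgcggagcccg
Slc18a2: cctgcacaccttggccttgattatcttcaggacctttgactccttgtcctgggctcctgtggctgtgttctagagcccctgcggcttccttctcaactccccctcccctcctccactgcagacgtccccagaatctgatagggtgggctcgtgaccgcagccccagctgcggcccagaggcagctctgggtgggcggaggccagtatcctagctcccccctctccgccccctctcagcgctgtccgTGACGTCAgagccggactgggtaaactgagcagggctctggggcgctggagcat
Hdc: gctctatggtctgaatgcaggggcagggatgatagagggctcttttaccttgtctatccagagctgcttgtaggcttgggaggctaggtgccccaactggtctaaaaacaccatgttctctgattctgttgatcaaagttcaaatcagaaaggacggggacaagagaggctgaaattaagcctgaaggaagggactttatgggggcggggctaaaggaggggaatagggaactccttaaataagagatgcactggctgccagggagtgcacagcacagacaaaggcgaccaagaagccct
The letters TGACGTNA were found in 4 of the 9 member genes with a listed promoter and in 3.36% of all 27025 genes with one (2.93% of 32851 promoters of this length, since some genes have several). The palindrome TGACGTCA was found in 3 of the 9, Sst, Chgb and Slc18a2, and in 2.03% of all genes (1.79% of promoters). A match describes these letters only, and Chgb shared them without the separation of arrays seen in Sst, Chga and Slc18a2. Hdc and Ghrl, in turn, had that separation without a match in any listed promoter.

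Values are RMA values on a log2 scale, so a difference of 1 is a doubling, and the brightness of different probe sets cannot be ranked as amounts of RNA. In bulk tissue, fewer cells of a type and less RNA per cell cannot be told apart. The tissue is labelled gut, and the list of gastric gland and surface genes had a mean between 13.15 and 13.18 on every array, near the top of the scale. For a view of signal without expression, the 1015 olfactory receptor genes had a 95th percentile of 6.31. All 9 gastric genes lay above it, and so did 6 of the 8 intestinal genes, all but Sis and Fabp6, so that an intestinal part of the tissue cannot be told from these lists. Neurog3 lay below it, with 15.4% of these receptor genes at or above its mean of 5.76. Tph1 was passed by 2.46% of them, Gast by 0.69% and Mboat4 by 0.20%, and the other 6 members by none. Differences in Neurog3 therefore rest on a signal that cannot be told from background. Exact ties between arrays, which occurred in 77.7% of genes, were present in 4 members, Gast, Tph1, Neurog3 and Slc18a2.

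**Figure D1:**
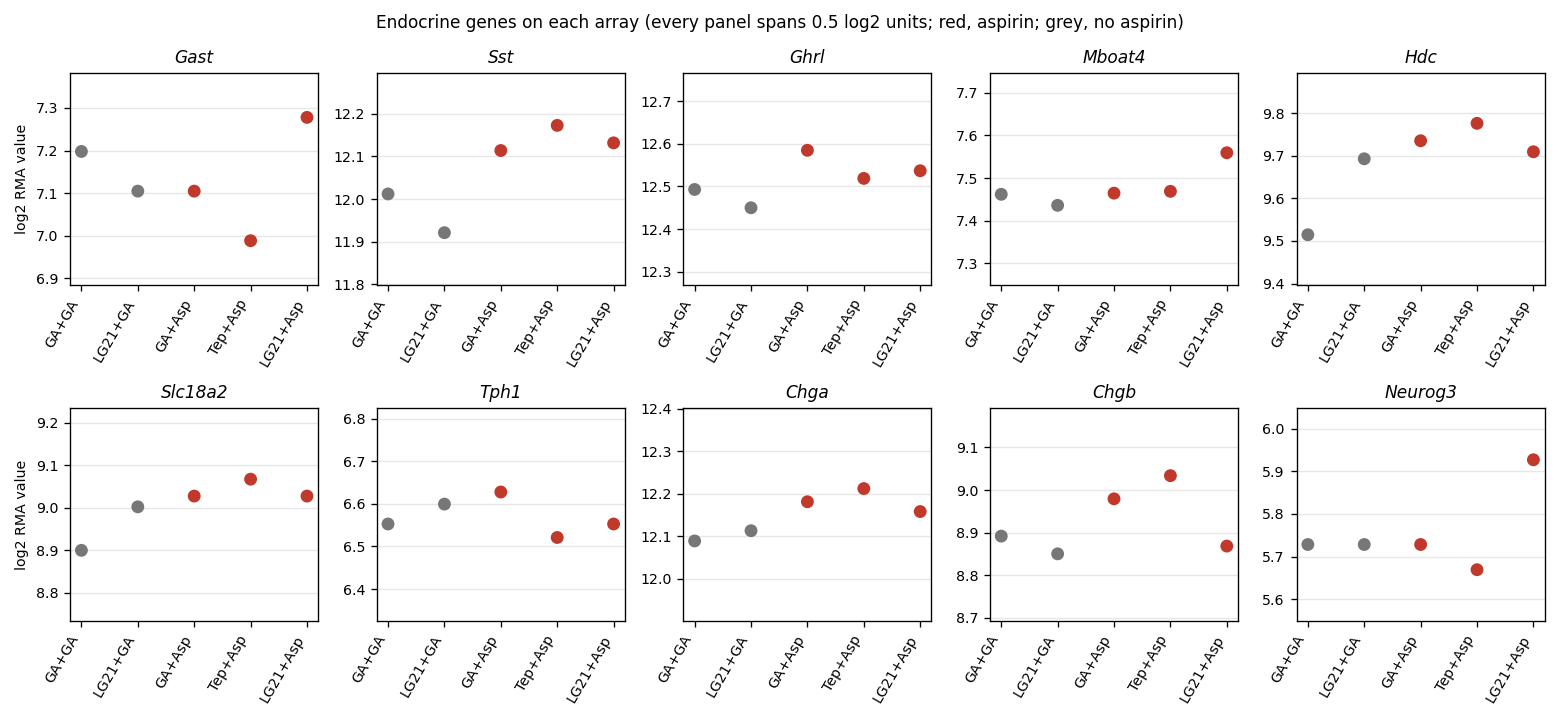
Log2 RMA value (vertical axis) of each of the 10 endocrine genes on each of the 5 arrays (horizontal axis), 1 point per array, red with aspirin and grey without. Sst, Ghrl, Mboat4, Hdc, Slc18a2 and Chga have all 3 red points above both grey ones, while Gast and Neurog3 are highest in LG21+Asp and lowest in Tep+Asp.

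The 10 genes had a median range over the 5 arrays of 0.18, against 0.09 for all genes, and no member reached a difference of 0.3. Gast had the widest range (0.29), followed by Hdc (0.26), Neurog3 (0.26) and Sst (0.25). A range as wide as that of Gast was found in 7.24% of all genes, and one as wide as that of Sst in 9.88%. Tph1, with 0.11, had the narrowest, which 44.1% of genes reached.

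The first comparison set the 3 aspirin arrays against the other 2, across pretreatments, to ask how the endocrine genes stood with aspirin. Sst, Ghrl, Chga, Hdc, Slc18a2 and Mboat4 were higher on all 3 aspirin arrays than on both others, 6 of 10 members, against 5.45% of all genes. Of the 7 members above the median level of all genes, 6 did so, against 8.68% of genes above that level. The count needs a strict difference, so a gene tied between an aspirin array and either of the others cannot enter it. Exact ties between some pair of arrays were present in 77.7% of genes and in 4 of the 10 members, and 6.84% of genes were equal on all 5. The share among genes without ties was not computed. No member stood lower on all 3, and the share of all genes that did was not computed. The share of all genes higher on all 3 depends on the processing: it was 24.6% after quantile normalization, where the count of members was again 6. Without the LG21+GA array it was 23.1%, but there the aspirin arrays had only GA+GA to exceed, a weaker condition. The size was small, from 0.05 in Mboat4 to 0.17 in Sst, and the median over the 10 was 0.08 against 0.00 for all genes. No member passed the test, limma's moderated fit with Benjamini-Hochberg adjustment over all 19938 genes, and 0% of all genes did. At an unadjusted p under 0.05 there were 2 of 10 members, Sst and Chga, against 2.91% of all genes.

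Somatostatin gave the widest separation. Sst stood at 12.01 in GA+GA and 11.92 in LG21+GA, and at 12.11 in GA+Asp, 12.17 in Tep+Asp and 12.13 in LG21+Asp. The lowest aspirin array thus lay 0.10 above the highest of the others. The mean was 12.14 ± 0.03 (SD, n = 3) with aspirin against 11.97 for the 2 others, a difference of 0.17, or 1.13-fold, with a 95% interval from 0.07 to 0.28 and a limma adjusted p of 0.833. In the pairs that share no array, the aspirin difference was 0.10 after gum arabic and 0.21 after LG21.

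Ghrelin showed the same split at a smaller size. Ghrl stood at 12.49 in GA+GA and 12.45 in LG21+GA, against 12.58 in GA+Asp, 12.52 in Tep+Asp and 12.54 in LG21+Asp. The sets of arrays were 0.03 apart at their nearest. The mean difference was 0.08 (95% interval -0.004 to 0.15, limma adjusted p = 0.833), and the aspirin difference was 0.09 both after gum arabic and after LG21. Mboat4, which acylates ghrelin, stood at 7.46 in GA+GA, 7.44 in LG21+GA, 7.46 in GA+Asp, 7.47 in Tep+Asp and 7.56 in LG21+Asp. Its sets of arrays were only 0.003 apart, so that LG21+Asp alone stood out. Its mean difference was 0.05, with an interval from -0.06 to 0.16, and 0.02 without LG21+Asp.

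Gastrin differed from the other hormones. Gast stood at 7.20 in GA+GA, 7.10 in LG21+GA and, exactly tied with it, in GA+Asp. It was 6.99 in Tep+Asp and 7.28 in LG21+Asp. Aspirin arrays held both its highest and its lowest value. The mean difference with aspirin was -0.03, with an interval from -0.33 to 0.27, wide enough to hold the differences of all the other members. LG21+Asp and Tep+Asp, the 2 pretreatments before aspirin, differed by 0.29 in Gast, or 1.22-fold.

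The enzyme of histamine synthesis and the transporter that stores it had nearly the same order of arrays. Hdc, which makes histamine from histidine, stood at 9.51 in GA+GA, 9.69 in LG21+GA, 9.74 in GA+Asp, 9.78 in Tep+Asp and 9.71 in LG21+Asp. The control array was the one apart, 0.18 below the next, and the other 4 lay within 0.08. Slc18a2, the vesicular monoamine transporter, was lowest in the control too (8.90), followed by LG21+GA (9.00). It stood at 9.03, exactly tied, in GA+Asp and LG21+Asp and at 9.07 in Tep+Asp. The aspirin difference after gum arabic was 0.22 for Hdc and 0.13 for Slc18a2, while after LG21 it was 0.02 and 0.03. Over all arrays it was 0.14 for Hdc (95% interval -0.05 to 0.32, limma adjusted p = 0.833) and 0.09 for Slc18a2 (-0.02 to 0.20). Without the GA+GA array the difference was 0.05 in Hdc and 0.04 in Slc18a2, and without LG21+GA it was 0.23 and 0.14.

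Tph1, the first enzyme of serotonin synthesis, did not follow them. It stood at 6.55, exactly tied, in GA+GA and LG21+Asp, 6.60 in LG21+GA, 6.63 in GA+Asp and 6.52 in Tep+Asp, and the sets of arrays overlapped. The mean difference with aspirin was -0.01, with an interval from -0.13 to 0.11.

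Among the granule genes, Chga separated the arrays and Chgb did not. Chga stood at 12.09 in GA+GA, 12.11 in LG21+GA, 12.18 in GA+Asp, 12.21 in Tep+Asp and 12.16 in LG21+Asp. The mean difference was 0.08 (95% interval 0.02 to 0.14, limma adjusted p = 0.833), and the sets of arrays were 0.05 apart at their nearest. Chgb stood at 8.89 in GA+GA, 8.85 in LG21+GA, 8.98 in GA+Asp, 9.03 in Tep+Asp and 8.87 in LG21+Asp. The last of these lay below the control, and the mean difference of 0.09 had an interval from -0.08 to 0.26. Without LG21+Asp it was 0.14, and without Tep+Asp 0.05. Neurog3 was exactly tied at 5.73 in GA+GA, LG21+GA and GA+Asp, and stood at 5.67 in Tep+Asp and 5.93 in LG21+Asp.

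**Figure D2:**
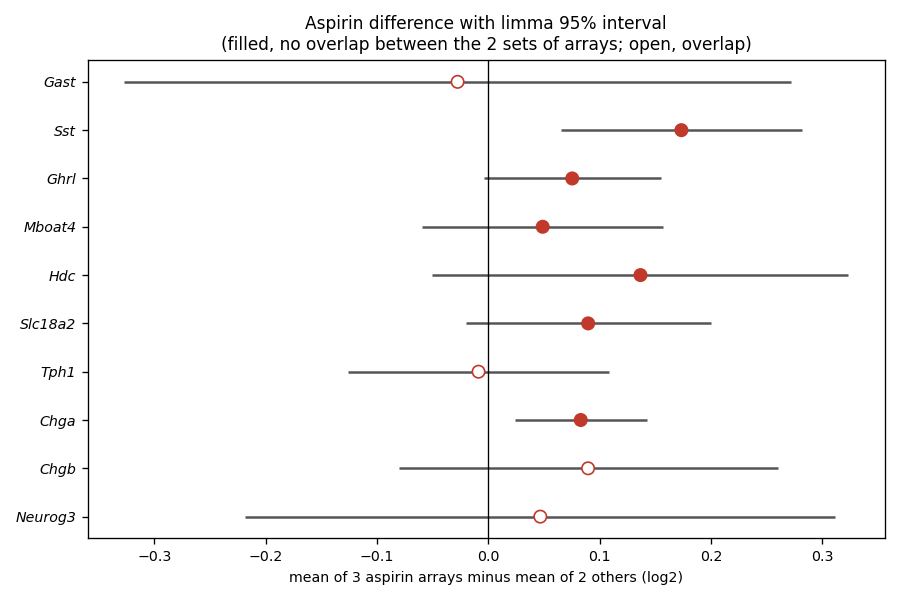
Mean of the 3 aspirin arrays minus the mean of the 2 others (log2, horizontal axis) for each of the 10 endocrine genes, with limma's 95% interval as a bar. Filled points, from 0.05 to 0.17, are the 6 genes whose sets of arrays did not overlap, and the intervals of Sst and Chga alone lie above 0.

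The single arrays were then compared in 6 pairs, where no test is possible and a difference of at least 0.2 either way was called. In GA+Asp against GA+GA, which asks for aspirin alone, 1 of 10 members was called, Hdc (0.22, 1.17-fold), against 5.33% of all genes. Of the others 7 were higher, Gast was lower and Neurog3 equal, with a median of 0.09 over the 10, while 42.4% of all genes were higher and 31.4% lower. In LG21+GA against GA+GA, the bacterium alone, 0 were called, against 3.53% of all genes. The largest difference there was 0.18, in Hdc, and 4 members were higher and 5 lower, with 38.8% and 29.8% of all genes.

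LG21+Asp against GA+Asp, the bacterium before aspirin, gave 0 called members, against 6.58% of all genes. The differences ran from -0.11 in Chgb to 0.20, just short of the size called, in Neurog3. Tep+Asp against GA+Asp gave 0 as well, against 4.48%, and ran from -0.12 in Gast to 0.06 in Sst. LG21+Asp against Tep+Asp gave 2, Gast (0.29) and Neurog3 (0.26), both higher with the bacterium, against 4.77% of all genes. In LG21+Asp against LG21+GA, aspirin after the bacterium, 1 was called, Sst (0.21, 1.16-fold), against 4.36%. There 9 of 10 members were higher, as were 39.2% of all genes, with 33.6% lower. Pairs that share an array are not independent of each other. With 10 members a single call already passes these background shares, so the counts of 0 to 2 are given as a description.

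The bacterium was also compared over both aspirin states in an additive limma fit on the 4 arrays without teprenone. No member passed, and 0% of all genes did. At an unadjusted p under 0.05 there was 1 of 10, Ghrl, against 4.38% of all genes, and 0 of 10 with cyclic loess, with quantile normalization and with 2 LG21 arrays against 3 others, and 0 of the 7 members that passed the filter on low values. Ghrl was 0.05 lower with LG21 (95% interval -0.08 to -0.01, limma adjusted p = 0.753), lower in both pairs. The interval for Gast ran from -0.53 to 0.61, so that a difference of the size seen between single arrays would not be detectable with this number of arrays.

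The array at the extreme was not the same for all genes. Tep+Asp was strictly highest in 5 of 10 members (Sst, Hdc, Chga, Chgb and Slc18a2), against 14.3% of all genes. It was also strictly lowest in 3 (Gast, Tph1 and Neurog3), against 14.4%. GA+Asp was strictly highest in 2 (Ghrl and Tph1), against 21.7%. GA+GA was strictly lowest in 3 (Hdc, Chga and Slc18a2), against 20.6%, and LG21+GA in 4 (Sst, Ghrl, Chgb and Mboat4), against 13.8%. LG21+Asp was strictly highest in 3 (Gast, Neurog3 and Mboat4), against 22.0% of all genes, a share near the background. Among genes above the median level, Tep+Asp was highest in 17.2% and LG21+Asp in 11.7%. There GA+GA was lowest in 26.3% and LG21+GA in 16.5%.

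Genes with the profile nearest to a member were sought for the 3 members of widest range, by Euclidean distance of log2 values centred on each gene's mean over the 5 arrays, among genes above the median level. For Hdc they were Tmem159 (distance 0.02), Tmtc1 (0.03) and Per1 (0.03), a repressor of the circadian clock. Per1 stood at 8.61 in the control, between 8.82 and 8.87 in LG21+GA, LG21+Asp and GA+Asp, and at 8.91 in Tep+Asp. For Neurog3 they were Klhl36 (0.03), Wars2 (0.04) and Kcnk15 (0.05), and for Gast Mir345 (0.09), Chchd6 (0.10) and Nubp2 (0.10). Only 5 values entered each distance and 9969 genes lay above the median level, so a near profile does not show a link between genes. No such link was tested.

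Other endocrine genes were read in 5 lists of granule and processing proteins, transcription factors, hormones, receptors and amine enzymes. None of their 62 measured genes passed limma's test with aspirin or with LG21 (adjusted over all genes). Of the 13 measured granule and processing genes, 5 were higher on all 3 aspirin arrays, against 5.45% of all genes and 8.68% of those above the median level. In this list 1 gene, Ptprn2, was lower on all 3, and the median difference was 0.06. The share of all genes lower on all 3 was not computed, here or for the lists that follow. Pcsk1, the convertase that cleaves prohormones, was the largest at 0.28 (95% interval 0.13 to 0.43, limma adjusted p = 0.833, unadjusted p = 0.00814). It stood at 7.86 in GA+GA and 7.74 in LG21+GA, against 8.12 in GA+Asp, 8.02 in Tep+Asp and 8.08 in LG21+Asp. Its lowest array, LG21+GA, was also that of Sst and Ghrl. Of the 13 genes of the list, however, LG21+GA was strictly lowest in 1 alone, Pcsk1, against 13.8% of all genes. GA+GA was strictly lowest in 7 of them, against 20.6%. Ptprn, a granule membrane protein, differed by 0.09 and Pam, the enzyme that amidates gastrin, by 0.06. Syp and Resp18 were highest in GA+Asp, at 8.14 and 7.01, and lowest in GA+GA, at 7.89 and 6.72.

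Cckbr, the gastrin receptor of enterochromaffin-like and parietal cells, had the control array apart as Hdc did. It stood at 9.25 in GA+GA and between 9.63 and 9.73 on the other 4 arrays, a difference of 0.47 for aspirin alone. Insm1, a factor of endocrine differentiation, likewise stood at 7.47 in GA+GA and between 7.70 and 7.72 on the other 4. Among genes above the median level, where Hdc, Cckbr and Insm1 lay, GA+GA was strictly lowest in 26.3%. A link between these genes was not tested. Of the 15 receptors and sensors, 1 was higher (Sstr5, 0.10) and 1 lower (Adcyap1r1, -0.10) on all 3 aspirin arrays, where 5.45% of all genes were higher. The histamine receptor Hrh2 had a range of 0.08 and the somatostatin receptor Sstr2 one of 0.12. LG21+Asp was strictly highest in 9 of the 15, against 22.0% of all genes, among them the calcium sensor Casr, at 7.10 against 6.72 to 6.84 elsewhere. The share was 11.7% among genes above the median level of 7.41, so it is larger among genes of low signal. All of these receptors but Hrh2 lay below that level.

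Of the 12 measured transcription factors none separated the aspirin arrays. Nkx6-3, a factor of G cells, stood at 7.81 in LG21+Asp and between 7.44 and 7.58 on the other 4. Pax4 stood at 6.72 against 6.51 to 6.56, so that both were highest on the array where Gast was. LG21+Asp was strictly highest in 4 of the 12 factors, against 22.0% of all genes and 11.7% of those above the median level. A link of these factors to Gast was not tested. Isl1 stood at 8.69 on each of the 5 arrays. Among 13 further hormone genes, 1, the glucagon gene Gcg, was higher on all 3 aspirin arrays (0.13), against 5.45% of all genes. Nmu had the widest range (0.53), from 6.31 in LG21+Asp to 6.84 in Tep+Asp. Of the 9 amine genes none reached a difference of 0.2 in any pair. Higher on all 3 aspirin arrays were 2 of them, Maoa (0.03) and Maob (0.06), against 5.45% of all genes. Ddc, the decarboxylase that completes serotonin synthesis, was equal on all 5 arrays at 6.83.

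**Figure D3:**
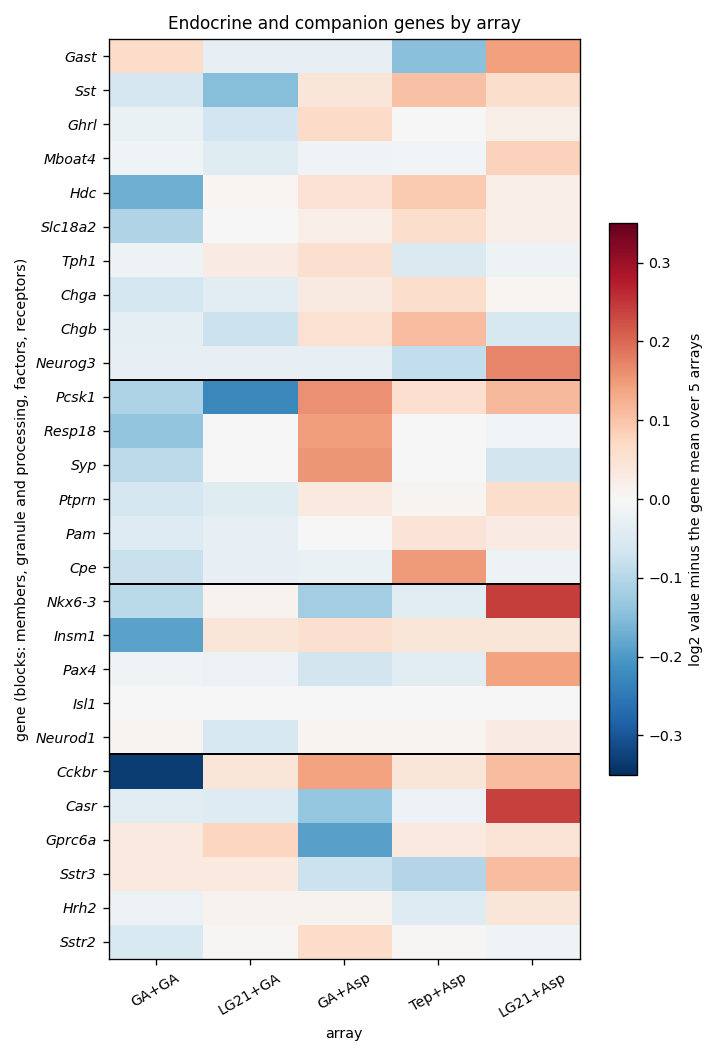
Log2 value minus the gene's mean over the 5 arrays (colour, from blue, lower, to red, higher) for the 10 endocrine genes and for named granule and processing genes, factors and receptors, 1 column per array. Hdc, Insm1 and Cckbr (9.25) are lowest in GA+GA, Pcsk1 (7.74) in LG21+GA, and Gast, Neurog3, Nkx6-3 (7.81) and Casr highest in LG21+Asp.

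Markers of other cells moved between the same arrays. The 8 hepatocyte genes had a mean of 10.25 in GA+GA, 9.57 in LG21+GA, 6.32 in GA+Asp, 7.53 in Tep+Asp and 8.65 in LG21+Asp, with all 8 lower on all 3 aspirin arrays, the split that 6 members had in the opposite direction. The 8 genes of squamous epithelium were all highest in Tep+Asp (mean 9.44) and all lowest in LG21+Asp (7.67), while the other 3 means lay between 8.70 and 8.92. The part of either in the endocrine differences was not tested. Hdc, Slc18a2 and Tph1 are also used by mast cells. The 10 mast cell genes had a mean of 7.29 in GA+GA, 7.48 in LG21+GA and between 7.03 and 7.23 with aspirin. The mucosal protease Mcpt1 stood at 7.48 in GA+GA, 8.45 in LG21+GA and between 6.40 and 7.24 with aspirin, and Mcpt2 had an aspirin difference of -0.82. In LG21+GA against GA+GA, however, Hdc (0.18), Mcpt1 (0.97) and Mcpt2 (0.35) were all higher, and the part of mast cells in Hdc, Slc18a2 and Tph1 was not tested. Of the 10 mast cell genes 3 were lower and 1, Kit, higher on all 3 aspirin arrays, where 5.45% of all genes were higher. The 9 measured enteric neuron genes included 7 that were strictly highest in GA+Asp, against 21.7% of all genes and 33.6% of those above the median level. Vip was among them, at 8.15 against 7.86 in the control. The part of neurons in the values of Sst and Chgb, which neurons also express, was not tested. Of the 6 measured pancreatic islet genes, Gcg and Ppy, which gut and stomach cells may also express, lay above the 95th percentile of olfactory receptor genes and the other 4, Ins2 among them, below it. The acinar list had means between 7.17 and 7.26.

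**Figure D4:**
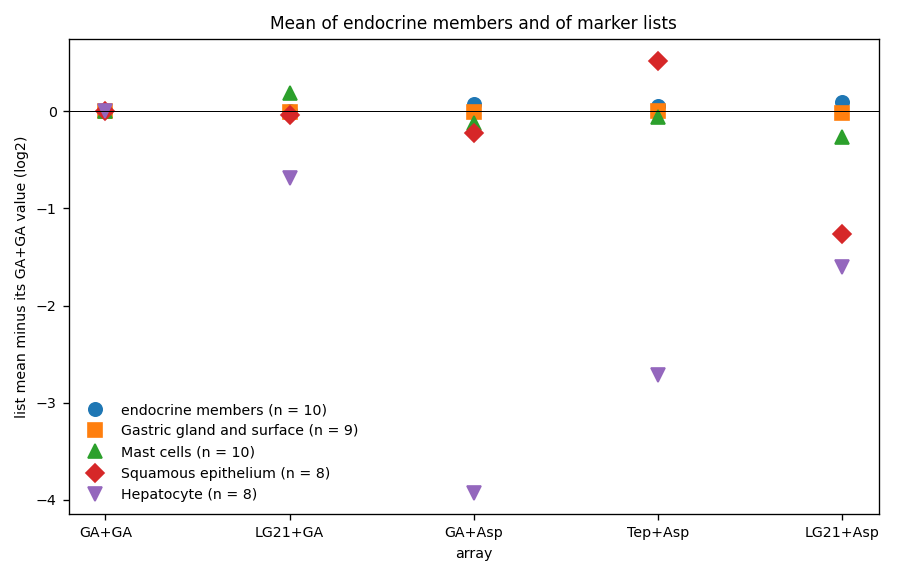
Mean log2 value of the 10 endocrine genes and of 4 marker lists, each minus its GA+GA value (vertical axis), on the 5 arrays (horizontal axis), 1 symbol per list. The endocrine and gastric means stay near 0, the hepatocyte mean is lowest in GA+Asp (6.32 against 10.25) and the squamous mean highest in Tep+Asp (9.44) and lowest in LG21+Asp (7.67).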

How the data were processed

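Total RNA was hybridised to 5 arrays, 1 per group, without replicates. The authors made the deposited log2 values by RMA (background correction, normalization between arrays, summary per probe set) in Expression Console, as the labels' descriptions state, whereas the series' design text names another Affymetrix tool. That the scale is log2 was read from the values. Versions and build: not given in the sources used here. Detection calls were not used here.

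Of 35557 probe sets, 21789 had 1 gene symbol, 1621 several and 12147 none. The probe set with the highest mean over the arrays stood for a gene. The 10 members, the companion and marker lists and the size of 0.2 were chosen with earlier results of these data known. Companion genes were named when at least 0.2 apart in a pair, at most 4 per list by range, together with defining members. Gif was read under its RefSeq symbol Cblif. Some listed genes were not analysed here.

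Differences of log2 values were taken with limma 3.58.1 (R 4.3.3). Aspirin was fitted as 3 arrays against 2 (3 residual degrees of freedom), and LG21 as a term beside aspirin on 4 arrays (1 residual degree of freedom), with adjusted p over all 19938 genes. Pretreatments thus count as spread in the first, and p-values do not measure spread between mice within a group. The number of arrays limits the precision. Alternatives were a filter on low values, the mean of probe sets, cyclic loess (3 iterations), quantile normalization, an intensity trend, other terms, other sizes and each array left out. Promoter letters were searched in RefSeq sequences of GRCm38.p6.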

Additional observations from a re-analysis of the deposited data

Results flagged for a closer look

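Gast and Tph1 had aspirin differences of opposite direction after gum arabic and after LG21. In Gast they were -0.09 and 0.17, so that the difference with LG21 exceeded that with gum arabic by 0.27. In Tph1 they were 0.08 and -0.05, and the value was -0.12. With 1 array in each group neither difference was tested.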

How the results depend on the processing

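No member passed the adjusted threshold for aspirin or LG21 under any alternative run, and leaving out each array in turn gave between 0 and 0 called members for aspirin. Leaving out one array was not run for LG21, where no residual degree of freedom would be left. Where 1 array without aspirin is left, it is assumed to vary like the others, and 492 genes passed without GA+GA and 740 without LG21+GA, none of them members. The number of members higher on all 3 aspirin arrays, an alternative chosen after seeing the data, was 6 with the mean of probe sets, 5 with cyclic loess (without Mboat4) and 6 with quantile normalization, where the share of all genes was 5.70%, 9.76% and 24.6%. Leaving out an array gave 6 to 7 members, and 8.03% to 23.1% of genes. A gene that separates on all 5 arrays also separates with an array left out. Neither figure could therefore fall, and these runs do not measure how stable the count is.

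Signs of small differences turned in places, and the cause was not tested. Gast with aspirin was 0.0400 in the additive fit. Tph1 with aspirin was 0.00238 with quantile normalization and 0.0142 in the additive fit. Over the arrays left out, Gast ran from -0.105 to 0.0400, Tph1 from -0.0392 to 0.0145 and Neurog3 from -0.0296 to 0.0995, below 0 without LG21+Asp. Chga with LG21 was 0.0136 with cyclic loess and 0.0115 with quantile normalization, and Tph1 with LG21 was 0.00887 for 2 LG21 arrays against 3 others.

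Counts of members past the size changed as follows. A size of 0.3 gave 0 for aspirin alone, for LG21+Asp against Tep+Asp and for LG21+Asp against LG21+GA. A size of 0.15 gave 1 for LG21+GA against GA+GA, 2 for LG21+Asp against GA+Asp, 3 for LG21+Asp against LG21+GA and 3 for LG21+Asp against Tep+Asp. Cyclic loess gave 0 for aspirin alone (Hdc 0.20, just short), and quantile normalization 0 for LG21+Asp against LG21+GA (Sst 0.19). No paired analysis was possible because no group has a second array, so no replicate numbers exist to pair. The additive fit, which takes aspirin within gum arabic and within LG21, called 0 members. Low signal limits Neurog3 most.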
